A study of Mus musculus with 4 samples.

Results

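Peaks of trimethylated lysine 36 of histone H3 (H3K36me3) that lie in the last intron of a transcript were examined in mouse forebrain progenitors of wild-type embryos and of embryos with a brain-specific deletion of H2A.z1, a gene for the histone variant H2A.Z. A peak belonged to this class when the authors' annotation placed it in an intron whose number equals the number of introns of the transcript, in transcripts with at least 2 introns. The class held 2502 of 36820 peaks in the wild type (WT) and 7663 of 95750 peaks in the conditional knockout (cKO), 10165 of 132570 in all. The material was forebrain of C57BL/6 embryos at embryonic day 13, labelled as neural progenitor cells. WT embryos carried an intact H2A.z1 gene as far as the labels state, and cKO embryos lacked H2A.z1 through a deletion restricted to the brain. The Cre driver, the cells in which it acts, and whether embryos were pooled are not given in the sources used here, and the related gene H2az2 is not listed as altered in either genotype. The chromatin of each genotype gave 1 ChIP library and 1 input library, so the 4 libraries hold no replicate. Values of the genotypes are therefore set side by side without a test. Intervals are exact Clopper-Pearson intervals at 95% for shares and order-statistic intervals at 95% for medians, and both cover counting error only.

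H3K36me3 is laid down by SETD2, which travels with elongating RNA polymerase II, so the mark lies over the bodies of transcribed genes and tends to rise toward their 3' ends. The last intron is the final one the polymerase crosses before the terminal exon. Its removal is coupled to recognition of that exon and to cleavage and polyadenylation of the transcript. H2A.Z is a replacement variant of histone H2A best known from nucleosomes around promoters and enhancers, where dedicated exchange complexes insert and remove it.

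A genome of the files' build (mm10) was not used here, so the sequence shown is limited to annotated elements that lie inside last-intron peaks. Of 32851 RefSeq windows reaching from 250 bases before to 50 bases after a gene start, 1 lay wholly inside a WT last-intron peak and 15 inside cKO ones. Of 1005 RefSeq microRNA hairpins, 0 lay inside WT peaks and 1 inside a cKO peak. The 3 windows below lie inside last-intron peaks: an inner start of the same gene, the start of another gene, and the start of a predicted gene. The intron named with each window is the label of the peak around it. The annotation labels a peak once however wide it is, so whether a window itself lies in that intron was not tested. Each window is written 5' to 3' on the strand of the gene that starts there, from RefSeq on GRCm38.p6. Capitals mark CG dinucleotides in the first and second windows, and in the third the run TGATAGGACTGACTGAGTGG.
Kif2c start, in intron 4 of 4 of a Kif2c transcript, chr4:117178723-117179022, minus strand: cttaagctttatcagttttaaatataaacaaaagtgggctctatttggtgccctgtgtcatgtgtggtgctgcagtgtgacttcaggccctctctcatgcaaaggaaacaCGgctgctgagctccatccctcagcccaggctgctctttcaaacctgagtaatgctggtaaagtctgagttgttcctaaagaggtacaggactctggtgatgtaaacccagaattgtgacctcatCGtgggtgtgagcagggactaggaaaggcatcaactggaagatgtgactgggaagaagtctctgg
Gzmm start, in intron 4 of 4 of Cdc34, chr10:79688770-79689069, plus strand: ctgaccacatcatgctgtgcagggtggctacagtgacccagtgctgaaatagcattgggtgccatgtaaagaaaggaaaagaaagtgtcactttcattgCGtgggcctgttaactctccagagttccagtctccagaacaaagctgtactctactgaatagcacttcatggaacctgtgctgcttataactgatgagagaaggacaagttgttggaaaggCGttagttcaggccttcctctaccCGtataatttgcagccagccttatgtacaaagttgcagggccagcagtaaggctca
Gm46287 start, in intron 22 of 22 of Ankfy1, chr11:72765233-72765532, plus strand: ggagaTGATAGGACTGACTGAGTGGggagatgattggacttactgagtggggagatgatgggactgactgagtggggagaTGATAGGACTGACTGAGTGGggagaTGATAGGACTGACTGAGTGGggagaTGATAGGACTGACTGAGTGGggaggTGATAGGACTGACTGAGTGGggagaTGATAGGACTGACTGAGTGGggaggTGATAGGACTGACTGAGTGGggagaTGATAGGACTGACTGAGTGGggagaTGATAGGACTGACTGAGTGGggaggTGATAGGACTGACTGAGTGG

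Kif2c encodes a mitotic kinesin that depolymerises microtubules, and its window held 2 CG dinucleotides. Gzmm encodes a serine protease of cytotoxic lymphocytes, and its window held 3. The peak around that window was labelled to Cdc34, which encodes a ubiquitin-conjugating enzyme of the cell cycle. A CG was present in 94.6% of the 32851 windows, with a median of 7 per window. The cKO peak labelled to the Cdc34 intron was 4986 bp wide and that labelled to the Kif2c intron 2908 bp. No WT last-intron peak touched either window. The Ankfy1 window was the only one inside a last-intron peak of both libraries, 1480 bp wide in WT and 3999 bp in cKO. It held no CG, and the capitalised run of 20 bases stood in it 10 times. On both strands, no other window of the 32851 held that run. Its peak had a local background, recovered from the authors' pileup and fold, of 2.60 tags in WT, the level of most WT peaks, and 8.46 tags in cKO, where the median of last-intron peaks was 3.30.

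A cKO peak of 3121 bp labelled to intron 6 of 6 of Mrpl21, which encodes a mitochondrial ribosomal protein, held the hairpin. That hairpin was Mir6984 (chr19:3288920-3288983, plus strand). Its mature products are given with the seed, bases 2 to 8, in capitals.
mmu-miR-6984-5p: aCUGAAAGgcaaugaaggaggagc
mmu-miR-6984-3p: uACUUUCUuuccugucuuucu

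The ChIP libraries held 31984670 tags in WT and 32927164 in cKO. A gene could be assigned to 98.5% of WT and 98.2% of cKO last-intron peaks. Of 31 markers of endothelium, microglia and leukocytes, red cells and mesenchyme, 0 had a peak annotated to an intron or exon in either library, while 20 of 25 genes of radial glia and neural progenitors had one.

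Last introns carried more H3K36me3 peaks than an equal use of all introns would give, in both genotypes. They held 13.9% of the intron peaks in WT (interval 13.4 to 14.4%) and 13.1% in cKO (12.8 to 13.3%). If each intron of a transcript were as likely as any other to hold its peaks, the share would have been 10.8% in WT and 11.1% in cKO. The observed share was thus 1.28 times the equal share in WT (1.24 to 1.33) and 1.17 times in cKO (1.15 to 1.199). The order of the genotypes turned when the cKO list was cut, strongest peaks first. The cKO ratio was then 1.31 (1.27 to 1.36) at the number of WT peaks and 1.42 (1.29 to 1.56) at an equal covered length. Its share of intron peaks was 13.97% (13.5 to 14.5%) and 15.1% (13.7 to 16.6%). All of these cKO intervals overlap those of WT. First introns lay far on the other side, at 0.387 times the equal share in WT and 0.511 times in cKO. The lengths of the introns were not used here, so the equal share does not allow for long and short introns.

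The ratio was above 1 in each size class of transcripts. With 2 to 4 introns the ratio was 1.34 in WT and 1.25 in cKO, and with 5 to 9 introns it was 1.30 and 1.19. With 10 to 19 introns it was 1.19 and 1.10. With 20 or more introns WT stood at 1.27 (1.13 to 1.43), whereas the cKO value of 1.04 had an interval of 0.961 to 1.12 that includes an equal share. The members came from 1888 transcripts in WT and 4371 in cKO, with a median of 6 introns and a maximum of 115 in each. At the lower limit of the class, transcripts of 2 introns gave 314 WT and 1169 cKO peaks with median widths of 248 and 411 bp. Peaks of transcripts with a single intron, just outside the class, numbered 283 and 819, with median widths of 258 and 399 bp.

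**Figure D1:**
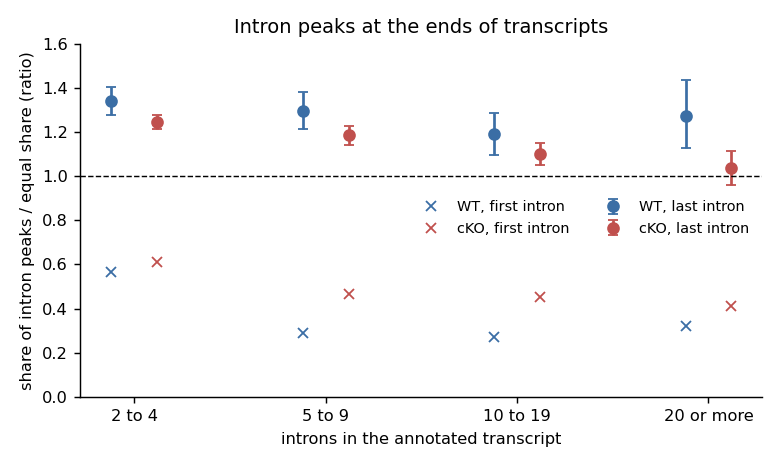
Share of intron peaks in the last intron (points, with intervals at 95% for counting error) and in the first intron (crosses), each divided by the share that equal use of every intron would give, against the number of introns of the transcript, for WT (blue) and cKO (red). The last-intron ratios run from 1.04 to 1.34, with the interval reaching the dashed line at 1 only for cKO transcripts of 20 or more introns, and all first-intron ratios lie below 1.

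The peaks lay where the label puts them, near the 3' ends of genes. Position was measured along the RefSeq gene span for peaks whose gene had a known strand, 1995 in WT and 6091 in cKO. The median last-intron peak stood at 84.5% of the span in WT and at 82.7% in cKO. In the 3' 50% of the span lay 85.0% of WT (83.3 to 86.5%) and 83.8% of cKO last-intron peaks (82.9 to 84.7%). The median distance to the gene's 3' end was 4.48 kb in WT and 5.53 kb in cKO. Terminal-exon peaks lay closer, at 2.21 and 2.31 kb, and internal-intron peaks farther away, at 15.8 and 20.7 kb. With the span cut into 10 equal bins, the bin at the 3' end held 35.3% of the WT and 33.4% of the cKO last-intron peaks, and the bin at the 5' end 0.301 and 0.804%.

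**Figure D2:**
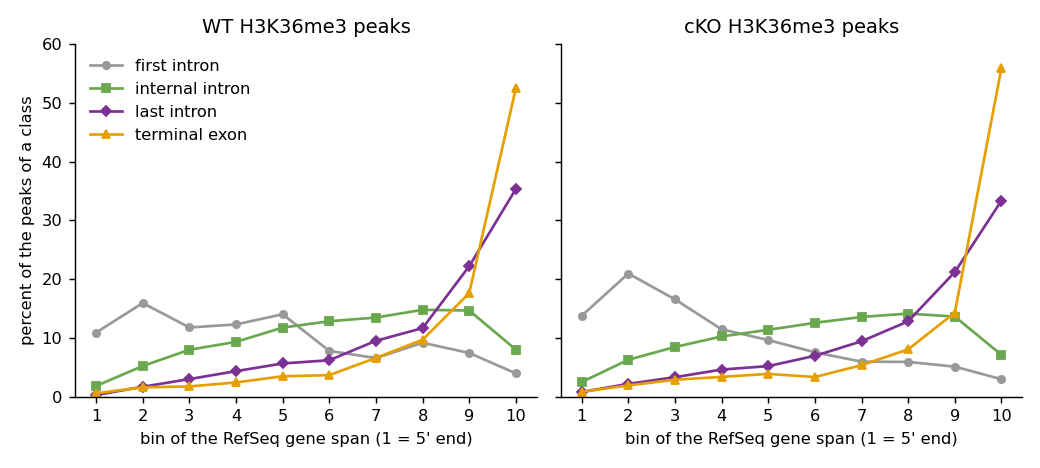
Percent of the peaks of each class in each of 10 equal bins of the RefSeq gene span, from the 5' end (1) to the 3' end (10), in WT (left) and cKO (right). Last-intron peaks (diamonds) climb to 35.3% and 33.4% in bin 10, between the terminal-exon peaks, which climb higher, and the internal-intron peaks, which fall off there.

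The cKO library had more and wider last-intron peaks. The count was 3.06 times the WT count, the covered length 6.18 times (5.41 Mb against 0.875 Mb), at a ratio of 2.60 in count and 5.18 in length over all peaks. Among related classes, first introns stood higher, at 4.42 in count and 7.49 in length, and internal introns close by, at 3.23 and 6.42. Terminal exons stood lower, at 2.097 and 4.38, and transcription termination sites (TTS) likewise at 2.06 and 4.44. Cut to as many peaks as WT, strongest first, the cKO list held 2890 last-intron peaks, and cut to an equal covered length it held 388, fewer than the 2502 of WT. Last introns made up 6.80% of all WT peaks (6.54 to 7.06%) and 8.00% of all cKO peaks (7.83 to 8.18%).

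The median last-intron peak was 267.5 bp wide in WT (interval 262 to 274 bp) and 435 bp in cKO (426 to 446 bp). The widest measured 6741 bp in WT and 9689 bp in cKO. Peaks over 1 kb made up 2.64% of the WT class (66 peaks) and 18.1% of the cKO class (1386 peaks). These widths were close to those of the whole lists. Over all peaks the medians were 271 and 436 bp, with 3.51% and 18.3% over 1 kb. Internal-intron peaks had medians of 260 and 421 bp, with 2.66% and 16.2% over 1 kb. The smallest width a peak can have follows the modelled fragment length of its library, 152 bp for WT and 185 bp for cKO. The part of that length in the widths was not tested.

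Last-intron peaks, much like internal-intron peaks, stood close to other peaks. From a member to the nearest peak of the same library the median gap measured 739.5 bp in WT against 322 bp in cKO. Another peak lay within 1 kb of 59.8% of WT (57.8 to 61.7%) and 83.5% of cKO members (82.7 to 84.4%). For internal-intron peaks the gaps were 795.5 and 340 bp, with 56.5% and 82.3% within 1 kb. First-intron peaks stood farther off, with gaps of 1434 and 552 bp and 39.1% and 65.0% within 1 kb. In WT the nearest peak was a TTS or terminal-exon peak for 34.1% of members, another last-intron peak for 32.3% and an internal-intron peak for 18.3%. In cKO the nearest was another last-intron peak for 50.1%, a TTS or terminal-exon peak for 27.0% and an internal-intron peak for 13.2%.

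Most WT last-intron peaks were also covered in cKO, but often under another class name. Of the 2502 WT peaks, 2420 (96.7%, 95.9 to 97.4%) shared at least 1 bp with a cKO peak, close to the 95.8% of internal-intron and 97.6% of terminal-exon peaks and above the 83.6% of first-intron peaks. When the cKO list was cut to an equal covered length, strongest peaks first, the WT share was 27.8%. For 69.8% of the 2420, a cKO peak over them was itself in the last intron. Among the 2413 with a single cKO partner, that partner was annotated TTS for 8.04%, internal intron for 7.29%, terminal exon for 6.59%, internal exon for 6.01% and promoter for 1.86%. The annotation gives 1 class to each peak however wide it is, so a broad cKO peak that takes in a last intron can be counted elsewhere.

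A WT peak lay under 1843 of the 7663 cKO members (24.05%, 23.1 to 25.02%). It was 50.2% with the cKO list cut to the number of WT peaks and 92.8% at an equal covered length, and 5.15% where 50% of the cKO peak had to be covered. With the full lists the share was 15.9% for first introns, 22.3% for internal introns and 30.4% for terminal exons. The 1843 peaks with a WT partner had a median width of 1035 bp, against 357 bp for the 5820 without one. In all, 487 cKO last-intron peaks spanned 2 or more WT peaks, at most 8, and for 361 of these (74.1%) the WT peaks were of more than 1 class. In 1686 pairs both peaks lay in the last intron, with a median width of 258.5 bp in WT and 1047.5 bp in cKO. The cKO peak was the wider one in 1637 pairs (97.1%) and held the whole WT peak in 1454 (86.2%). The summits of a pair lay a median of 125 bp apart (quartiles 46 and 497.5 bp).

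**Figure D3:**
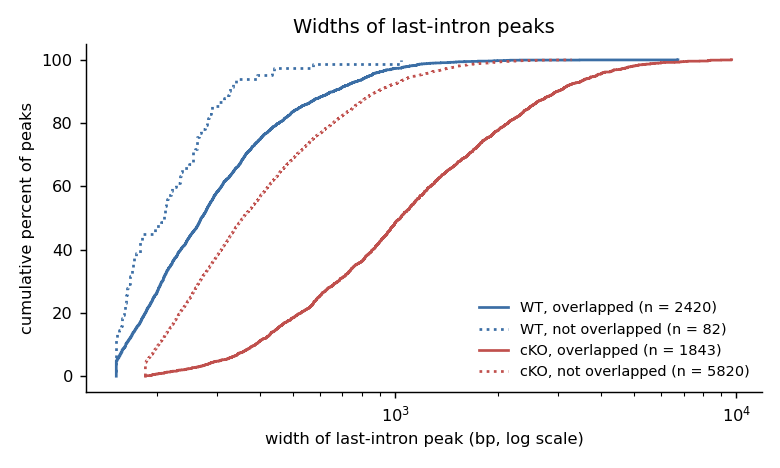
Cumulative percent of last-intron peaks by width in bp (log scale) for WT (blue) and cKO (red), with peaks that a peak of the other library overlaps (solid) and those without one (dotted). The cKO peaks with a WT partner stand far to the right, with a median of 1035 bp, and the cKO peaks without one, with a median of 357 bp, lie nearer to the WT curves, whose medians are 270 and 210 bp.

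Some of the strongest last-intron peaks recurred in both lists. Strength is the −log10 q that the authors' peak caller gave each peak, and it ranks peaks within a list only. In WT the first was in intron 9 of 9 of Tusc3, a subunit of the complex that attaches N-glycans (chr8:39155186-39156085), with a pileup of 142 tags, a fold enrichment of 33.4 and a −log10 q of 169. The second, in intron 6 of 6 of Uxs1, an enzyme that makes UDP-xylose (chr1:43777530-43779035), had a pileup of 125 tags and a fold of 12.4. Vash2, which encodes a tubulin-modifying vasohibin, and Nova1, a splicing regulator of neurons, followed with folds of 19.9 and 11.2. A peak within the span of Nudt21, a cleavage and polyadenylation factor, came next with a fold of 12.03 (chr8:94019911-94020835). It was assigned no gene, because a cKO terminal-exon peak of the same transcript lay outside that span. The other 5 were in Syt11, Sdhaf2, Tnrc18, Rdh13 and Tfap4, with folds of 6.88 to 12.2. Each of these 10 WT peaks was overlapped by a cKO last-intron peak.

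In the cKO list the peak inside the Nudt21 span was the strongest, 2136 bp wide with a pileup of 104 tags and a fold of 18.4 (chr8:94019837-94021972). The zinc finger genes Zfp334 and Zfp810 followed with 5176 and 6574 bp and folds of 20.4 and 19.7. The Zfp810 peak spanned 6 WT peaks of 4 classes. The Uxs1 peak came next, and its cKO extent (1521 bp, chr1:43777517-43779037) nearly matched the WT one (1506 bp). Its local background was high in both libraries, 9.14 tags in WT and 47.9 tags in cKO beside medians of 2.60 and 3.30, so the input was also rich there. Ddx17, an RNA helicase, Atf7ip, a partner of the H3K9 methyltransferase SETDB1, Syt11, Med28 and Tnrc18 were also among the 10. The peaks of Zfp334, Ddx17 and Med28 overlapped WT peaks, none of which was annotated to a last intron.

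The 5 widest cKO last-intron peaks each lay over WT peaks of other classes, and those of Pomp and Zfp12 over WT last-intron peaks as well. In WT, intron 23 of 23 of Arid4a, which encodes a chromatin protein that binds the retinoblastoma protein, carried a peak of 6741 bp (chr12:71087622-71094362). Golt1b, Kansl3, Tcf3 and Gramd1a followed with 3468, 2315, 2164 and 2135 bp. In cKO the widest was that of Aurka, the mitotic kinase Aurora A, at 9689 bp (chr2:172354529-172364217). The Aurka gene spans 172356190 to 172370886 on the minus strand, so its peak ran 1661 bp past the 3' end of the gene. That peak was assigned to intron 2 of 2 of a short transcript and spanned 6 WT peaks, annotated TTS, first intron, internal exon and promoter. Pomp, a proteasome assembly factor, had 9010 bp, and Kpnb1, which encodes importin beta, had 8388 bp over 8 WT peaks. Zfp12 and Pfkfb3, a regulator of glycolysis, had 8363 and 8282 bp.

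Counted by gene, last-intron marking was found on 1726 genes in WT and 3738 in cKO. The 1320 genes with such peaks in both libraries were 76.5% of the WT genes and 35.3% of the cKO genes. The other 406 WT genes and 2418 cKO genes had one in that library alone, and at equal covered length these numbers were 1460 and 101. Among the 8327 protein-coding genes with a peak annotated to an intron or exon in either library, 20.5% had a last-intron peak in WT and 44.4% in cKO. Most genes had 1 such peak, 1257 of the 1726 in WT and 2053 of the 3738 in cKO, while 24 WT and 278 cKO genes had at least 5. Last-intron marking rarely stood alone. A TTS or terminal-exon peak lay on the same gene for 73.9% of WT members (72.2 to 75.7%) and 89.5% of cKO members (88.8 to 90.2%). The same held for 72.4% and 87.9% of internal-intron peaks. An earlier intron of the gene had a peak for 69.6% of WT and 84.5% of cKO members. At an equal covered length the cKO values were 28.2% with a TTS or terminal-exon peak and 35.0% with an earlier-intron peak, both below WT. At the number of WT peaks they were 71.2% and 72.9%. The 71.2% was also below WT, but its interval (69.5 to 72.9%) overlaps that of WT. Genes whose last-intron peaks were their only peaks numbered 169 in WT (9.79%) and 126 in cKO (3.37%).

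In the 1320 genes marked in both, the bases under last-intron peaks had a median of 352 bp in WT and 1856.5 bp in cKO. The median difference was 1384.5 bp (quartiles 648 and 2429 bp), and the median ratio 4.52 (quartiles 2.61 and 7.59). The cKO value was larger in 1266 genes and smaller in 54. It was at least 2-fold larger in 1100 genes (83.3%) and at least 2-fold smaller in 12 (0.909%). The other intron and exon peaks of these genes were compared in the same way, in the 1066 genes that had them in both libraries. There the median ratio was 4.57 for last-intron peaks and 5.59 for the other intron and exon peaks. The last-intron ratio was the larger one in 426. Each peak counts whole under its 1 class, so the ratios compare classes of peaks and not stretches of the gene.

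**Figure D4:**
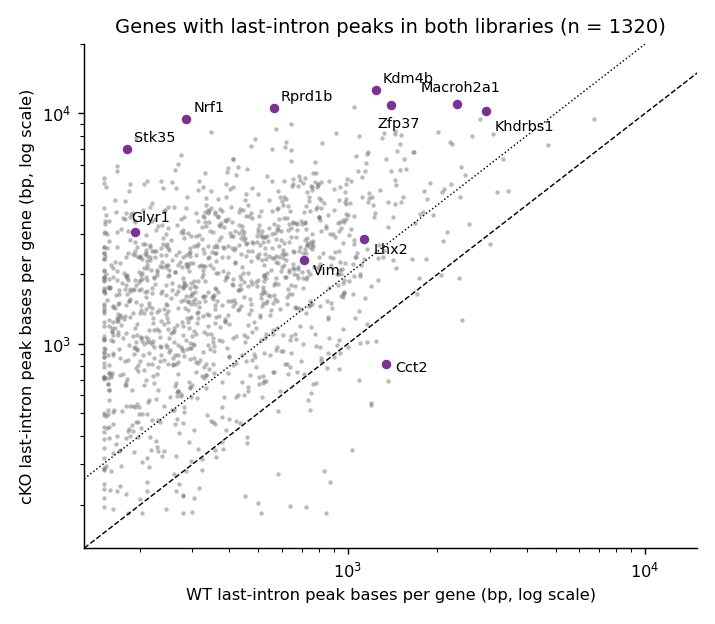
Bases under last-intron peaks per gene in WT (x axis) and cKO (y axis), in bp on log scales, for the 1320 genes with such peaks in both libraries; the dashed line marks equal values and the dotted line 2-fold more in cKO. Most genes lie above the dotted line (1100 genes), with named genes in purple, and 54, Cct2 among them, lie below the dashed line.

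The largest difference was that of Kdm4b, a demethylase of H3K9 and H3K36 (chromosome 17, 56325970 to 56403774). Its last introns held 2 WT peaks of 1242 bp together and 8 cKO peaks of 12577 bp. Rprd1b, which binds the tail of RNA polymerase II, went from 2 peaks and 563 bp to 20 peaks and 10499 bp, the most peaks of any gene. Its other introns and exons had 400 and 5135 bp. Nrf1, an activator of nuclear genes for mitochondrial respiration, had 1 WT peak of 286 bp and 15 cKO peaks of 9412 bp. Frmd4a went from 1051 to 10709 bp, the zinc finger gene Zfp37 from 1402 to 10905 bp, and Macroh2a1, which encodes another H2A variant, from 2329 to 10952 bp.

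These gains took different forms. In Macroh2a1 7 WT peaks stood against 3 broad cKO peaks, and in Khdrbs1, which encodes the RNA-binding protein Sam68, 7 peaks of 2913 bp against 6 of 10229 bp. In Stk35, a kinase gene, 1 WT peak of 181 bp stood against 19 cKO peaks of 6974 bp. Zfp532 had 8 and 14 peaks (2785 and 9474 bp) and Lrrc4b, which encodes a synaptic adhesion protein, 7 and 8 (2215 and 7518 bp). Aurka, Pfkfb3, Zmiz1 and Kpnb1 had no WT last-intron peak and 9689, 9053, 8777 and 8388 bp in cKO. All 4 had other WT peaks on introns or exons, from 520 bp in Pfkfb3 to 16780 bp in Zmiz1, a transcriptional coactivator.

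Of the 406 genes with a last-intron peak in WT alone, 393 had another cKO peak. Their 461 WT last-intron peaks were overlapped by a cKO peak in 440 cases (95.4%), beside 96.7% of all WT last-intron peaks. Only 21 of these genes had no overlapped one. The cKO partners were internal-intron peaks in 27.0%, TTS peaks in 26.1%, terminal-exon peaks in 22.2% and internal-exon peaks in 17.0%. The lowest difference was in a gene known by a Riken identifier, E130309D02Rik, with 8 WT last-intron peaks of 3511 bp and none in cKO. All 8 lay under 2 cKO peaks of the TTS and terminal-exon classes, the wider one 7988 bp. Gramd1a, a sterol transporter, and Numa1, an organiser of spindle poles, had 2135 and 1997 bp in WT, each under 1 cKO peak annotated to an internal intron, of 15123 and 9353 bp. Safb2 (1958 bp) and Zfp606 (1834 bp) were likewise overlapped by cKO peaks of other classes. The absence of a cKO last-intron peak in these 5 genes thus went with a cKO peak over the same place.

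Few WT last-intron peaks had no cKO peak over them. These 82 peaks had a median width of 210 bp, against 270 bp for the rest. The strongest lay in Dytn (1039 bp), Wnt7a, which encodes a Wnt ligand (236 bp), Snrpd3, a core protein of spliceosomal particles (161 bp), Mepe (327 bp) and Atrnl1 (270 bp). The Dytn and Atrnl1 peaks had local backgrounds of 9.14 and 26.6 tags against the WT median of 2.60.

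Of the 2418 genes with a last-intron peak in cKO alone, 1715 had another WT peak and 703 had none. The latter carried 1052 cKO last-intron peaks without a WT partner. The strongest were in Dcaf10, a ubiquitin ligase substrate receptor (1832 bp, chr4:45372917-45374748), Elf1, an ETS transcription factor (576 bp), Obi1, a ubiquitin ligase of replication origins (638 bp), Trip13, a spindle checkpoint ATPase (587 bp), and Rarb, a retinoic acid receptor (943 bp). Their folds in the cKO list lay between 9.16 and 10.3.

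Gene lists were read against the 20.5% of genes in WT and 44.4% in cKO given above, over members with an intron or exon peak. Among radial glia and neural progenitor genes, 5 of 20 (25%) had a last-intron peak in WT and 11 of 20 (55.0%) in cKO. Lhx2, a cortical selector gene, had 1136 bp in WT and 2843 bp in cKO. Vim, the intermediate filament vimentin, had 711 and 2310 bp, and Cdh2, N-cadherin of the ventricular surface, 209 and 2550 bp. Sox9 had 0 and 1525 bp, and Pax6 0 and 1202 bp. Other intron and exon peaks held 456 bp in WT and 0 bp in cKO on Sox9. On Pax6 they held 363 and 0 bp. Among genes of intermediate progenitors and neurons the counts were 2 and 4 of 12 (16.7 and 33.3%). Tubb3, the neuronal tubulin, had 695 and 844 bp, and Mfng, a modifier of Notch, 383 and 591 bp.

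Among cell cycle and replication genes, 8 of 32 (25%) had a last-intron peak in WT and 15 of 32 (46.9%) in cKO. Beside Aurka, cyclin D2 (Ccnd2) had 5 peaks in each, of 2488 and 5397 bp. The proliferation marker Mki67 had 522 and 2922 bp, and Mcm5, a subunit of the replicative helicase, 338 and 2652 bp. The kinase gene Cdk1 had 346 bp in WT and none in cKO, where a peak of 5030 bp annotated to an internal intron lay over the WT peak.

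Genes for cleavage and polyadenylation factors, which act at the end of the transcript, had 6 of 22 (27.3%) in WT and 13 of 22 (59.1%) in cKO. Nudt21 is on this list, but the strong last-intron peaks within its span were assigned no gene and are not in these counts. Cstf1 had 1394 and 5602 bp, Cpsf4 335 and 3236 bp, and Cpsf7, a partner of the Nudt21 product in cleavage factor I, 280 and 3018 bp. Papola, the poly(A) polymerase, had 459 bp in WT and 395 bp in cKO. The cKO count was lower among SR proteins and core splicing factors, at 6 of 34 in WT (17.6%) and 8 of 34 in cKO (23.5%). Sf1, the branch point binding protein, had 761 and 4669 bp, Snrpb 0 and 3994 bp, and Prpf3 462 and 1780 bp. Other intron and exon peaks of Snrpb held 2746 bp in WT and 1189 bp in cKO. RNA polymerase II and elongation factor genes had 4 of 27 (14.8%) and 5 of 27 (18.5%). Leo1 and Ctr9, subunits of the PAF complex, had 580 and 3143 bp and 644 and 1802 bp.

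Among genes that write, erase or read H3K36 methylation, 10 of 27 (37.0%) had a last-intron peak in WT and 14 of 27 (51.9%) in cKO. Beside Kdm4b, the demethylase gene Kdm4a had 703 and 3320 bp, and the reader genes Psip1 and Glyr1 had 719 and 3340 bp and 193 and 3044 bp. Setd2 itself had 0 bp in WT and 1858 bp in cKO. Supt6, a histone chaperone of the elongating polymerase, had 0 and 4552 bp. Other intron and exon peaks held 1622 and 19602 bp on Setd2, and 10049 and 22636 bp on Supt6. Among H2A.Z exchange and chaperone genes the counts were 8 of 24 (33.3%) and 15 of 24 (62.5%). Epc1 had 711 and 3734 bp, Ino80 962 and 3457 bp, and H2az2, the paralogue of the deleted gene, 657 and 2126 bp. Trrap had 0 and 2901 bp, beside 20624 and 60875 bp under its other intron and exon peaks. Ubiquitously transcribed genes had 4 of 24 (16.7%) and 8 of 24 (33.3%), with 449 and 2812 bp in the lactate dehydrogenase gene Ldha and 1347 and 814 bp in the chaperonin gene Cct2.

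**Figure D5:**
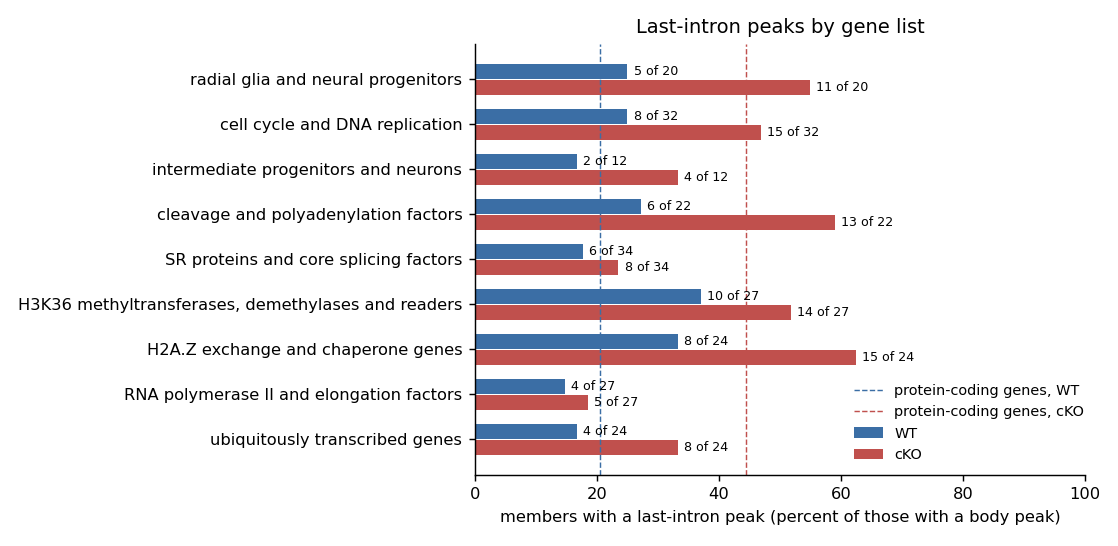
Percent of the members of each gene list with a last-intron peak in WT (blue) and cKO (red), among members with a peak annotated to an intron or exon; dashed lines mark the same percent over 8327 protein-coding genes. In cKO the bars run from 18.5% (RNA polymerase II and elongation factors) to 62.5% (H2A.Z exchange and chaperone genes) around the line at 44.4%.

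Across the 9 lists with such peaks, 16 entries had a last-intron peak in WT and none in cKO. Every WT last-intron peak of these 16 lay under a cKO peak, as did 96.7% of all WT last-intron peaks. That the cKO peak was of another class is largely fixed by choosing genes without a cKO last-intron peak. The 16 included the reader gene Zmynd11 (1175 bp in WT, under a cKO TTS peak of 3083 bp) and Brd1 (1447 bp, under an internal-intron peak of 4391 bp). The methyltransferase gene Nsd1 was another (506 bp, under a terminal-exon peak of 4238 bp). Because these lists hold 12 to 34 such members each, a few genes move their percentages.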

How the data were processed

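H3K36me3 ChIP and input chromatin of each genotype was crosslinked with 1% formaldehyde, per the labels' protocols. Bowtie2 2.2.9 served for alignment to build mm10, per the submitters' processing notes. Peaks were called per library with MACS (2.1.1.20160309 per the file headers, 2.1.0 per the submitters' processing notes) against input as narrow peaks at a p cutoff of 1.00e-05. The deposited lists give the pileup signal, the fold enrichment ratio over input and −log10 p-values and q-values, all made by the authors' run. These depend on each library's tags, so they were read within a list only. The headers say that q was not calculated, yet the deposited column holds values, which served to rank. The authors' annotation table, made with a tool not given in the sources used here, supplied intron numbers and was joined by position (its starts are 1 bp higher).

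The table names a gene other than that of the annotated transcript for 35.1% of WT and 37.1% of cKO members. Genes were therefore assigned through the transcript where the table pairs it with a gene whose RefSeq span (GRCm38.p6) holds the midpoints of all peaks annotated to that transcript's introns and exons, otherwise by the only protein-coding span, or the only span, that holds them. On transcripts with both, the ways gave the same gene in 7052 of 7229 (97.6%). Bases per gene sum peak widths. Overlap needed at least 1 bp, and local background was (pileup + 1) / fold − 1. Scripts (Python 3.11.15, pandas 2.3.3, SciPy 1.17.1) were tested on simulated data.

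Named were the 10 strongest and 5 widest peaks per library, the 10 largest and 5 lowest gene differences, the 5 strongest peaks without a partner (in cKO, on genes without a WT peak), the 5 genes per library with most peaks, and up to 4 members per list. Some of these are not reported here. Further list members, the printed windows, the Zfp family and the sex chromosomes were chosen after their values were seen. Members and lists were chosen with earlier results of these data known. Alternatives were stricter thresholds, reduced cKO lists, other overlap rules, at least 5 introns, joined peaks, protein-coding genes alone and the authors' gene names.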

Additional observations from a re-analysis of the deposited data

How the results depend on the processing

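With 1 ChIP library per genotype no library could be left out. No paired analysis was possible because each genotype has a single library and the labels carry no replicate numbers. Of 132 values recomputed for 20 results under 11 alternatives, 75 were labelled the same as the full-list value and 57 moved. Values with an interval were the same when inside the full-list interval. Counts have no interval and were the same when within a fixed fold of the full-list count. Apart from the share overlapped, values of WT peaks could not change where only the cKO list was reduced. A −log10 q of at least 5 gave median widths of 285 bp (WT) and 455 bp (cKO), 67.8% (WT) and 88.7% (cKO) of members with a TTS or terminal-exon peak on the gene, 64.2% of WT members with an earlier-intron peak, and 19.99% of cKO members overlapped. A fold of at least 4 gave 91.6% of WT members overlapped and, in cKO, a ratio to equal use of 1.21, a width of 483 bp, 86.6% with a TTS or terminal-exon peak and 82.7% with an earlier-intron peak. With the cKO list reduced to the number of WT peaks, by strongest −log10 p, cKO held 2890 members, 13.97% of intron peaks, 1.31 times equal use and a width of 844 bp. Then 80.5% of WT and 50.2% of cKO members were overlapped, 71.2% and 72.9% of cKO members had TTS or terminal-exon and earlier-intron peaks, 642 genes were in WT alone and 990 in cKO alone, and the median gene difference was 1115.5 bp. Reduced to the WT covered length, cKO held 388 members among 5308 peaks (7.31%), 15.1% of intron peaks, 1.42 times equal use and a width of 2009.5 bp. Then 27.8% of WT and 92.8% of cKO members were overlapped, 28.2% and 35.0% of cKO members had TTS or terminal-exon and earlier-intron peaks, and 266 genes were in both, 1460 in WT alone and 101 in cKO alone. The order of the genotypes turned at equal covered length for the number of members (2502 in WT), the genes in 1 library alone, the share overlapped and the share with an earlier-intron peak. At both reductions it turned for the share of intron peaks, the ratio to equal use and the share with a TTS or terminal-exon peak. At the number of WT peaks, however, the cKO intervals of these results overlap those of WT. At equal covered length the intervals of the share of intron peaks and of the ratio overlap as well. With 5 or more introns there were 1560 WT and 4617 cKO members (4.24% and 4.82% of all peaks, 9.77% and 8.96% of intron peaks), 1.13 times equal use in cKO, 83.1% and 94.3% with earlier-intron peaks, 839 genes in both and a gene difference of 1235 bp. An overlap of 50% of the peak left 95.2% of WT and 5.15% of cKO members overlapped, a reciprocal 50% left 15.3% and 5.04%, and a partner in a last intron 67.5% and 19.2%. Joining peaks of 1 gene within 1 kb gave widths of 297 bp and 801.5 bp. The authors' gene names, an alternative chosen after seeing the data, gave 70.9% (WT) and 86.3% (cKO) with TTS or terminal-exon peaks and 65.2% and 79.0% with earlier-intron peaks. The annotation gives no gene type, so the planned restriction to protein-coding genes was not run as planned, and the RefSeq type, chosen after seeing the data, was used instead and moved no value. Apart from the effect of fewer peaks, members or bases in the reduced settings, the cause was not tested.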

Other observations

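Zinc finger genes of the Zfp family, looked at after their values were seen, made up 4.50% of WT last-intron peaks with a gene (111 peaks on 70 genes, interval 3.72 to 5.40%) and 3.96% of cKO ones (298 peaks on 141 genes, 3.53 to 4.42%). The family's share of first-intron peaks was close to that, at 3.98% in WT (2.68 to 5.67%) and 3.85% in cKO (3.21 to 4.57%). It held 1.37% and 1.49% of internal-intron peaks and 7.93% and 5.29% of terminal-exon peaks. Of the last-intron peaks on Zfp genes, 96.4% in WT and 26.8% in cKO were overlapped by a peak of the other library. Members of such families resemble each other in sequence, and the placement of reads among them was not tested.

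On the X chromosome 6 WT and 72 cKO last-intron peaks were found, out of 138 and 1146 peaks in all. On the Y chromosome there were 0 and 15, out of 18 and 77. The authors' table names Erdr1 for 14 of these 15, which lie between positions 90762008 and 90810859. Their median local background was 16.0 tags, against 3.30 tags for all cKO last-intron peaks, so the input was also rich there.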
